A study of Homo sapiens with 24 samples.

Results

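The genes described here are 51 members of the machinery that opens replication origins and copies DNA at the fork. The choice was by symbol, with no measured value in the rule, although the list was made with earlier results of these data known. Each gene was taken as the table row that carries its symbol. All 51 were found, each with 1 row, among 25575 rows and 25161 symbols. They were divided by role into licensing (9 genes), the CMG helicase (11), firing (6), fork protection and checkpoint (4), polymerase and primase (9), clamp and clamp loader (6), single-strand DNA binding (3) and Okazaki fragment processing (3).

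Expression was measured on 24 Clariom D arrays, a whole-transcriptome microarray, from SU-DHL-4, an established line of diffuse large B-cell lymphoma, labelled as from a pleural effusion, and DG-75, an established Burkitt lymphoma line labelled as from a peritoneal effusion. Cells of both lines were kept for 72 h in the solvent DMSO, in 1 µM Entospletinib (Ento), an inhibitor of the kinase SYK that relays B-cell receptor signals, in 0.01 µM AZD5153 (AZD), a bivalent inhibitor of BET proteins that read acetylated chromatin, or in both (Ento+AZD). The 8 groups held 3 arrays each, and each disease was represented by 1 line. The methods speak in general of biologically independent samples, whereas the sample titles number the arrays without saying whether they came from separate cultures, so that p-values measure the spread between these arrays.

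Replication begins with licensing. The origin recognition complex (ORC) marks origins and, with CDC6 and CDT1, loads the MCM ring onto DNA, while geminin (GMNN) holds CDT1 back until the next cycle. At firing, the kinase CDC7 with its partner DBF4 and a set of loading factors add CDC45 and the GINS complex to the ring and so form the active CMG helicase, behind which primase and polymerases, tethered by the clamp PCNA, synthesise DNA. Many of these genes are transcribed in late G1 and S phase under E2F factors.

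Array medians lay between 4.89 and 5.14 on the log2 scale, and replicate arrays correlated at 0.981 to 0.992 across genes. The B-cell markers MS4A1, CD79A, CD79B, PAX5 and CD22 had mean log2 expression of 8.42 to 12.2 in SU-DHL-4 and 7.31 to 11.6 in DG-75. The 4 T-cell markers lay between 1.51 and 3.97 in both lines. The 3 monocyte markers lay between 2.48 and 5.64. The epithelial markers EPCAM, KRT8 and KRT18 lay between 2.63 and 7.11 (SU-DHL-4) and between 2.29 and 7.02 (DG-75), with KRT8 the highest of these in each line. In bulk RNA, fewer cells in S phase and less RNA of these genes per cell cannot be told apart.

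Under Ento+AZD most replication genes lay below their DMSO level in both lines, by amounts that differed from gene to gene. In SU-DHL-4, 19 of the 51 fell by more than 2-fold at an adjusted p under 0.05, against 1.09% of all rows called lower in that comparison, and 25 passed the adjusted p alone (2.06% of all rows). A change below 0 was seen in 50 of the 51 (64% of all rows). The median log2 fold change was -0.87 over the 51 and -0.08 over all rows. In DG-75, 12 of the 51 fell by this rule, against 0.708% of all rows, 27 passed the adjusted p alone (1.87%) and all 51 lay below 0 (61.4%). Here the medians were -0.80 and -0.07. None of the 51 was called higher in either line. Fitted over both lines together, 17 members were called lower by the same rule (0.813% of all rows) and 44 passed the adjusted p (7.03%).

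In SU-DHL-4 the count rested on the replicate term and on single arrays. Without the replicate number in the model 1 member was called in place of 19. Omission of 1 array left 3 (DMSO replicate 2), 4 (the combination, replicate 2) or 9 (replicate 3 of either group), and omission of every array numbered 2 or 3 left 2 and 0. In DG-75, 12 became 0 when replicate 1 of either group or all arrays of any 1 number were omitted. There, DMSO replicates 2 and 3 left 5 and 1 when omitted, and the combination's replicate 2 left 4. Scaling moved the DG-75 count too, to 4 after subtraction of array medians and to 7 after quantile normalization. With an array or a replicate number omitted the median change of the 51 stayed below 0, between -1.16 and -0.63 in SU-DHL-4 and between -0.88 and -0.68 in DG-75. Over both lines the count ranged from 12 to 19 with an array or a replicate number left out, and ORC1, CDT1, GMNN, MCM6, GINS1, GINS2, CDC45, MCM10, CDC7, PRIM1, POLE2 and POLD3 were called in each of the 15 fits.

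**Figure D1:**
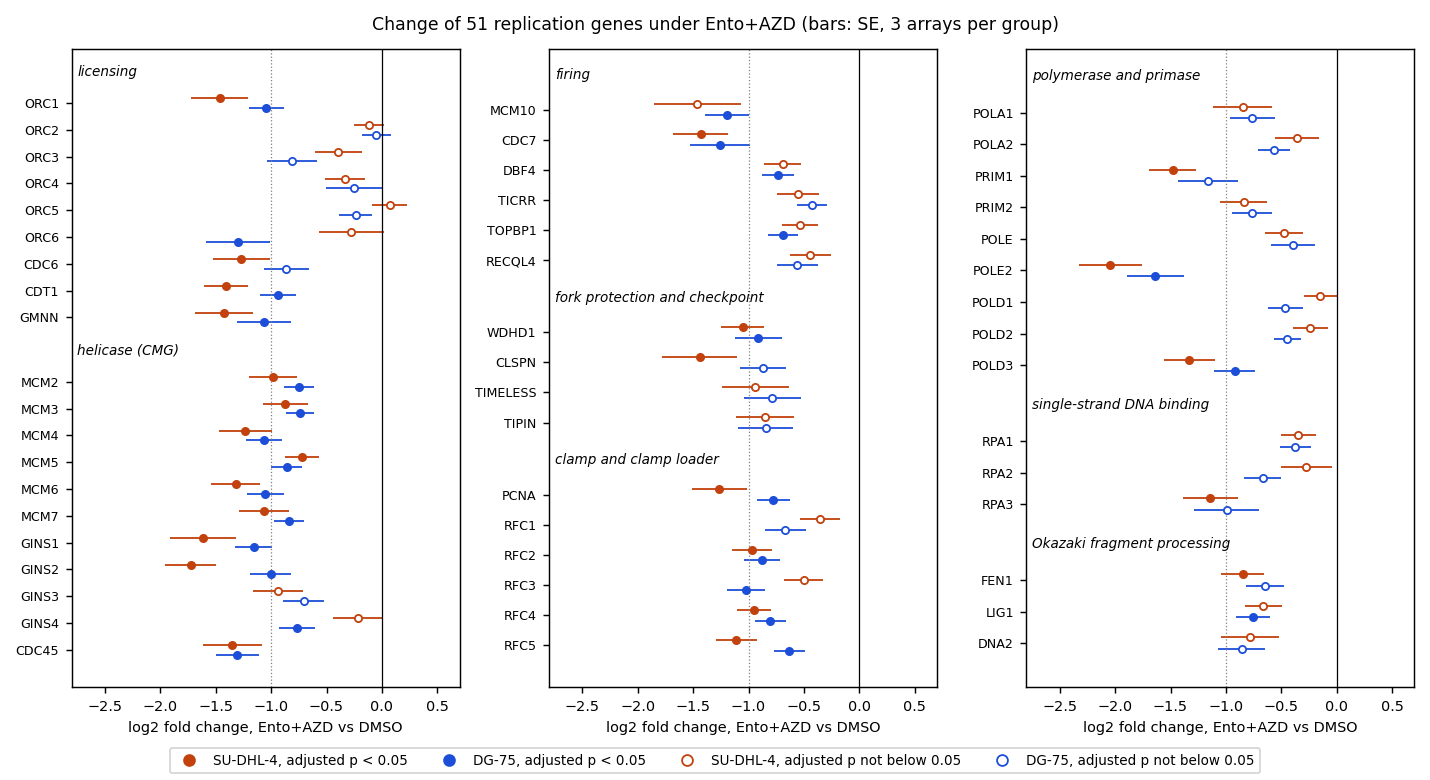
Log2 fold change of each of the 51 replication genes under Ento+AZD against DMSO, grouped by role, in SU-DHL-4 (orange) and DG-75 (blue), from 3 arrays per group. Bars are standard errors of the limma fit, filled points have an adjusted p under 0.05, and the dotted line marks a 2-fold decrease. POLE2 lies farthest to the left in both lines, and ORC2 and ORC5 lie close to 0.

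Because the genes moved together, their promoters were read from RefSeq (GRCh38.p14). The table held 1 or more windows, from 250 bases before to 50 bases after a start, for 43 of the 51 genes, 55 windows in all, and MCM4, MCM5, GINS4, RECQL4, POLD3, RPA2, RPA3 and DNA2 had none. The E2F-type octamers searched were the following, on both strands and with overlaps allowed: TTTCCCGC, TTTCGCGC, TTTGCCGC and TTTGGCGC. A match stood in 22 of the 55 windows (40%), against 3.31% of all 35114 windows. By role the share ran from 58.3% of 12 helicase windows to 0 of the 1 window for single-strand DNA binding. It was 50% of 2 Okazaki windows and 40% of both the 10 polymerase and the 5 fork windows. The letters CCAAT occurred in 54.5% of the windows against 34.6% of all, and CACGTG in 12.7% against 7.26%. TTTGAA, the cell cycle homology region of genes expressed in G2 and M phase, occurred in 1.82% against 15.2%. Among genes with a window, 10 of the 14 called lower over both lines had an E2F-type match, as had 12 of the 29 not called. A match is a description of letters. The shares were not adjusted for base composition, and no test was made of them.

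Windows of 6 members are printed, from 140 bases before to 20 bases after the start and on the strand of the gene. All but ORC2 were picked because an E2F-type match lies in the printed stretch, so these windows cannot relate a match to a decrease. Over both lines ORC1 and PRIM1 were called lower without a match, whereas POLE and POLA2 had a match and were not called. Capitals mark E2F-type matches on either strand, which overlap each other in MCM6. The windows lie at chr16:88803649-88803808 (+) for CDT1, chr2:135876424-135876583 (-) for MCM6, chr16:85688935-85689094 (-) for GINS2, chr14:49688195-49688354 (-) for POLE2 and chr19:48170325-48170484 (-) for LIG1. ORC2, at chr2:200963641-200963800 (-), is shown for comparison, as a member with a change near 0 and a window that holds no match.
CDT1: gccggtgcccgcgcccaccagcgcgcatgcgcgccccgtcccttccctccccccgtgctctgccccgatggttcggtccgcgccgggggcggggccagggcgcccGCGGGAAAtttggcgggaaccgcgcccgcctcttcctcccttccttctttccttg
MCM6: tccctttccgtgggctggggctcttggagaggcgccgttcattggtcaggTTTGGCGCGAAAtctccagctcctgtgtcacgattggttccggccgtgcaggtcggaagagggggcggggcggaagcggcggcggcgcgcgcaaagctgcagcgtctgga
GINS2: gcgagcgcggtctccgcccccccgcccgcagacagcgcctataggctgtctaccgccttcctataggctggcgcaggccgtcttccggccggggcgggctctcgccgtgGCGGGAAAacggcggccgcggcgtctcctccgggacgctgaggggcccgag
POLE2: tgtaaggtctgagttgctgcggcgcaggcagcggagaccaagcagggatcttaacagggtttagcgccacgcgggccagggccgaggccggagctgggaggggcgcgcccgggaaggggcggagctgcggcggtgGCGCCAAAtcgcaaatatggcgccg
LIG1: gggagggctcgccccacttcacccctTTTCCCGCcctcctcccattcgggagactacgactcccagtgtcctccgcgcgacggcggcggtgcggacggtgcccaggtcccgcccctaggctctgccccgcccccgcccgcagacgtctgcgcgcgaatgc
ORC2: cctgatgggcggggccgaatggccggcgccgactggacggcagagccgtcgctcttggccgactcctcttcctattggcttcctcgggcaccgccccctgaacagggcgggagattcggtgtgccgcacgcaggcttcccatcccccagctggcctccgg

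Among the licensing genes, CDT1, GMNN and ORC1 fell in both lines, while ORC2 to ORC5 passed the test in neither. In SU-DHL-4, 4 of the 9 licensing genes were called lower under Ento+AZD, and the median change was -0.39. In DG-75, 3 of 9 were called and the median was -0.86. CDT1, the loader of the MCM ring, had log2 expression of 6.58, 6.82 and 7.46 on the SU-DHL-4 DMSO arrays and of 5.46, 5.47 and 5.72 under Ento+AZD. All 3 combination arrays were below all 3 DMSO arrays, a log2 fold change of -1.40 ± 0.20 (SE) and 2.65-fold lower (adjusted p = 0.00567). In DG-75 CDT1 went from 7.16, 7.53 and 7.09 to 6.47, 6.20 and 6.32, again without overlap, a change of -0.93 ± 0.16 that passed the adjusted p (0.0214) and not the 2-fold limit. ORC1, the largest ORC subunit, had values of 7.86, 7.87 and 8.57 in SU-DHL-4 under DMSO and of 6.81, 5.59 and 7.51 under Ento+AZD. The groups did not overlap, although the combination arrays were far apart, with replicate 2 lowest, and the change was -1.46 ± 0.26 (adjusted p = 0.0127). ORC1 fell in DG-75 as well, from 8.68, 8.87 and 8.54 to 7.43, 7.83 and 7.71 (-1.04 ± 0.16, adjusted p = 0.0163).

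The licensing inhibitor GMNN fell in both lines, by 1.43 (SU-DHL-4) and 1.06 (DG-75) on the log2 scale, although its DG-75 call was lost in each of the 9 fits with an array or a replicate number omitted. CDC6, the ATPase that joins ORC to load MCM, fell by 1.27 in SU-DHL-4 and had a change of -0.86 in DG-75 (adjusted p = 0.0512). ORC2 had 7.82, 8.05 and 8.23 on the SU-DHL-4 DMSO arrays and 7.84, 7.88 and 8.02 under Ento+AZD. These ranges overlapped, with a change of -0.12 and a 95% interval of -0.41 to 0.17. In DG-75 the ORC2 change was -0.05, and in both lines it was above 0 after subtraction of array medians or quantile normalization. ORC3 had means of 7.91 and 7.52 in SU-DHL-4 under DMSO and Ento+AZD, with overlap, and of 8.73 and 7.92 in DG-75, without overlap. ORC4 and ORC5 had changes of -0.34 and 0.07 (SU-DHL-4) and of -0.25 and -0.24 (DG-75), none of which passed the adjusted p. ORC5 was the 1 member above 0 in SU-DHL-4.

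ORC6, the smallest ORC subunit, was called in DG-75 and not in SU-DHL-4. It kept the DG-75 call in 1 of 9 fits with an array or a replicate number omitted. On the DG-75 arrays it had 7.78, 7.70 and 7.85 under DMSO and 6.12, 6.04 and 7.27 under Ento+AZD, a change of -1.30 ± 0.29 (adjusted p = 0.0420). In SU-DHL-4 it had 6.93, 7.47 and 7.86 under DMSO and 7.17, 6.89 and 7.37 under Ento+AZD, overlapping ranges with a change of -0.28. The difference between the lines was 1.02 with a 95% interval of 0.08 to 1.97, and its adjusted p was 0.724.

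Most of the 11 helicase subunits fell. In SU-DHL-4, 6 were called lower, 9 passed the adjusted p and the median was -1.07. In DG-75, 5 were called, 10 passed the adjusted p and the median was -0.86. Over both lines the role had the lowest median of the 8, at -0.95. MCM6, an ATPase subunit of the ring, had 8.38, 8.42 and 9.01 under DMSO in SU-DHL-4 and 7.43, 6.65 and 7.78 under Ento+AZD, 2.49-fold lower (-1.32 ± 0.22, adjusted p = 0.0118). In DG-75 it went from 9.41, 9.10 and 9.15 to 7.95, 8.24 and 8.31 (-1.05 ± 0.17, adjusted p = 0.0196). No MCM6 array of the combination reached a DMSO array of its line.

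MCM5, another subunit of the ring, fell in both lines as well. It had 8.77, 9.04 and 9.28 under DMSO in SU-DHL-4 and 8.34, 8.05 and 8.53 under Ento+AZD (-0.72 ± 0.15, adjusted p = 0.0288). In DG-75 its values were 9.58, 9.31 and 9.45, and then 8.61, 8.63 and 8.51 (-0.86 ± 0.14, adjusted p = 0.0210). Both changes passed the adjusted p and stayed under 2-fold. For the other ring subunits the changes in SU-DHL-4 were -0.99 for MCM2, -0.87 for MCM3, -1.23 for MCM4 and -1.07 for MCM7, and in DG-75 they were -0.75, -0.74, -1.07 and -0.84. All 8 of these passed the adjusted p.

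GINS, the 4-subunit complex that completes the CMG, was less even. GINS2 had 7.93, 7.85 and 8.67 under DMSO in SU-DHL-4 and 6.54, 5.41 and 7.33 under Ento+AZD. The 3.31-fold decrease (-1.73 ± 0.23, adjusted p = 0.00567) remained called in 8 of 9 fits with an array or a replicate number omitted. In DG-75 GINS2 went from 9.59, 9.47 and 9.13 to 8.29, 8.47 and 8.42 (just over 2-fold lower, SE 0.18 on the log2 scale, adjusted p = 0.0243). That call held in 1 of 9 such fits. GINS1 fell by 1.61 and 1.16 in the respective lines. GINS3 had changes of -0.94 and -0.71 with adjusted p of 0.0508 and 0.0735. GINS4 had a change of -0.22 in SU-DHL-4 (adjusted p = 0.739) and fell by 0.77 in DG-75 (adjusted p = 0.0378), and the difference between the lines was not called (0.55, 95% interval -0.06 to 1.15). CDC45 fell by 1.35 and 1.30.

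**Figure D2:**
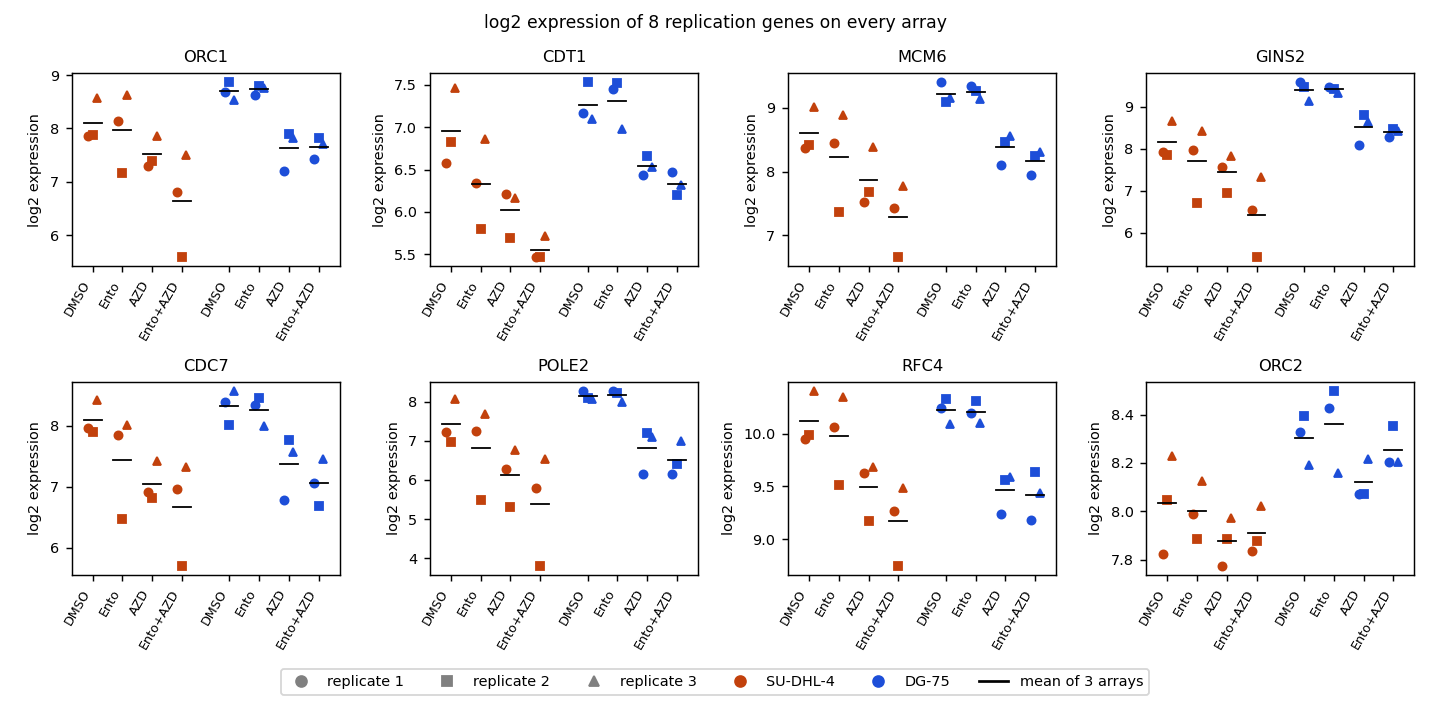
Log2 expression of ORC1, CDT1, MCM6, GINS2, CDC7, POLE2, RFC4 and ORC2 on every array, by treatment, for SU-DHL-4 (orange) and DG-75 (blue). Symbols give the replicate number and horizontal bars the mean of 3 arrays, and each panel has its own y axis. In SU-DHL-4 replicate 2 is the lowest Ento array in all 8 panels.

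Among the firing factors, the kinase subunit CDC7 and the CMG activator MCM10 differed most from DMSO. CDC7 had 7.96, 7.90 and 8.42 under DMSO in SU-DHL-4 and 6.95, 5.70 and 7.32 under Ento+AZD (-1.43 ± 0.25, adjusted p = 0.0130). In DG-75 it went from 8.38, 8.01 and 8.57 to 7.05, 6.68 and 7.45 (-1.26 ± 0.27, adjusted p = 0.0383). The groups were apart in both lines, but the DG-75 call did not hold in any of the 9 fits with omissions. MCM10 was called in DG-75 (-1.19, adjusted p = 0.0210), whereas in SU-DHL-4 its larger change of -1.46 had an SE of 0.39 and an adjusted p of 0.0799. DBF4, the activating partner of CDC7, had 9.04, 9.13 and 9.59 under DMSO in SU-DHL-4 and 8.67, 8.21 and 8.81 under Ento+AZD (-0.69 ± 0.17, adjusted p = 0.0528). In DG-75 DBF4 had 9.11, 9.04 and 9.16, and then 8.26, 8.52 and 8.34 (-0.73 ± 0.14, adjusted p = 0.0282). TICRR and TOPBP1, which together recruit CDC45, and the helicase RECQL4 had changes of -0.69 to -0.43 in the 2 lines. Of these 6 values 1 passed the adjusted p, for TOPBP1 in DG-75 (0.0297).

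Of the 4 fork protection and checkpoint genes, 2 were called lower in SU-DHL-4 and none in DG-75, where limma gave all 4 an unadjusted p under 0.05 (16% of all rows) and the median was -0.86. WDHD1, which couples the helicase to polymerase alpha, had 7.19, 7.40 and 8.01 under DMSO in SU-DHL-4 and 6.51, 6.10 and 6.83 under Ento+AZD (-1.05 ± 0.20, adjusted p = 0.0166). On the DG-75 arrays it went from 8.24, 8.04 and 7.85 to 6.85, 7.27 and 7.26 (-0.91 ± 0.21, adjusted p = 0.0493). Neither pair of groups overlapped. CLSPN (claspin), the adaptor through which ATR activates the kinase CHEK1, had 6.56, 6.97 and 7.47 under DMSO in SU-DHL-4 and 5.80, 4.08 and 6.80 under Ento+AZD. Replicate 3 of the combination lay among the DMSO arrays, and the change of -1.44 ± 0.34 (adjusted p = 0.0466) was not called in any of the 9 fits with an array or a replicate number omitted. In DG-75 CLSPN had 8.37, 7.88 and 8.46, and then 7.13, 7.30 and 7.68 (-0.87 ± 0.21, adjusted p = 0.0548). TIMELESS and TIPIN, a pair that stabilises the fork, had changes of -0.94 and -0.85 (SU-DHL-4) and of -0.79 and -0.85 (DG-75), with adjusted p of 0.106 to 0.151.

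Of all members, the POLE2 change was the most negative in both lines. POLE2, the second subunit of the leading-strand polymerase epsilon, had 7.23, 6.96 and 8.06 under DMSO in SU-DHL-4 and 5.80, 3.80 and 6.52 under Ento+AZD, 4.12-fold lower (-2.04 ± 0.28, adjusted p = 0.00567). In DG-75 it had 8.27, 8.10 and 8.08, and then 6.15, 6.41 and 6.98, 3.11-fold lower (-1.64 ± 0.25, adjusted p = 0.0182). The groups were apart in both lines. PRIM1, the catalytic primase subunit, had 8.50, 8.16 and 8.99 in SU-DHL-4 under DMSO and 7.35, 6.02 and 7.83 under Ento+AZD (-1.48 ± 0.21, adjusted p = 0.00567). In DG-75 PRIM1 went from 8.67, 8.64 and 8.29 to 6.89, 7.57 and 7.65, again apart, with a change of -1.16 ± 0.27 and an adjusted p of 0.0511.

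The polymerase subunits did not move evenly. POLD3, an accessory subunit of polymerase delta, fell by 1.33 (SU-DHL-4) and 0.92 (DG-75). The catalytic subunits POLE and POLD1 had changes of -0.48 and -0.15 (SU-DHL-4) and of -0.40 and -0.47 (DG-75), and POLD2 of -0.24 and -0.45, none of which passed the adjusted p in a single line. The subunits of polymerase alpha, POLA1 and POLA2, had changes of -0.85 and -0.36 (SU-DHL-4) and of -0.76 and -0.57 (DG-75). PRIM2, the regulatory primase subunit, had -0.84 (adjusted p = 0.0592) and -0.76 (adjusted p = 0.0512).

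The clamp and its loader had medians of -0.96 (SU-DHL-4) and -0.79 (DG-75). PCNA, the sliding clamp, fell by 1.26 in the first line and by 0.78 in the second. RFC4, a loader subunit, had 9.95, 9.99 and 10.41 under DMSO in SU-DHL-4 and 9.27, 8.75 and 9.49 under Ento+AZD (-0.95 ± 0.15, adjusted p = 0.00975). In DG-75 it went from 10.25, 10.33 and 10.10 to 9.18, 9.63 and 9.44 (-0.80 ± 0.14, adjusted p = 0.0214). Both changes were under 2-fold, and over both lines RFC4 had the smallest adjusted p of the 51 (2.57e-05). RFC2 had 8.44, 8.76 and 9.18 in SU-DHL-4 under DMSO and 7.85, 7.44 and 8.18 under Ento+AZD (-0.97 ± 0.18, adjusted p = 0.0150). Its DG-75 values were 8.43, 8.56 and 8.42 under DMSO and 7.44, 7.78 and 7.56 under Ento+AZD (-0.88 ± 0.17, adjusted p = 0.0251). RFC5 was called in SU-DHL-4 (-1.11) and RFC3 in DG-75 (-1.02). RFC1, the large subunit, had -0.36 and -0.67 and passed the adjusted p in neither line.

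RPA, the trimer that coats single-stranded DNA, was uneven too. RPA3, its smallest subunit, had 7.53, 7.30 and 7.80 under DMSO in SU-DHL-4 and 6.77, 5.60 and 6.84 under Ento+AZD (-1.14 ± 0.25, adjusted p = 0.0349). This call was lost in each of the 9 fits with an array or a replicate number omitted. In DG-75 RPA3 had 6.78, 6.22 and 6.92, and then 5.52, 5.34 and 6.08 (-0.99 ± 0.29, adjusted p = 0.110). The groups were apart in both lines. RPA1, the large subunit, had 9.50, 9.88 and 9.95 in SU-DHL-4 under DMSO and 9.41, 9.22 and 9.64 under Ento+AZD, overlapping ranges with a change of -0.35 (adjusted p = 0.345). In DG-75 RPA1 had 10.19, 10.15 and 9.98, and then 9.73, 9.92 and 9.55 (-0.38, adjusted p = 0.212). RPA2 had changes of -0.27 and -0.67.

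The genes that finish Okazaki fragments had changes of -0.86 to -0.65 in the 2 lines. FEN1, the nuclease that removes flaps, had 8.43, 8.68 and 9.02 under DMSO in SU-DHL-4 and 7.97, 7.11 and 8.50 under Ento+AZD (-0.85 ± 0.20, adjusted p = 0.0447). Replicate 3 of the combination overlapped the DMSO arrays. In DG-75 FEN1 went from 9.24, 9.15 and 9.23 to 8.49, 8.81 and 8.38 (-0.65 ± 0.17, adjusted p = 0.0852). LIG1, the ligase that seals the nicks, had 6.09, 5.73 and 6.52 in SU-DHL-4 under DMSO and 5.60, 5.03 and 5.73 under Ento+AZD (-0.66 ± 0.17, adjusted p = 0.0628). On the DG-75 arrays it had 6.79, 6.49 and 6.72, and then 6.04, 5.73 and 5.97, without overlap (-0.76 ± 0.16, adjusted p = 0.0342). DNA2, a nuclease for long flaps, had changes of -0.79 and -0.86 (adjusted p = 0.168 and 0.0619).

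**Figure D3:**
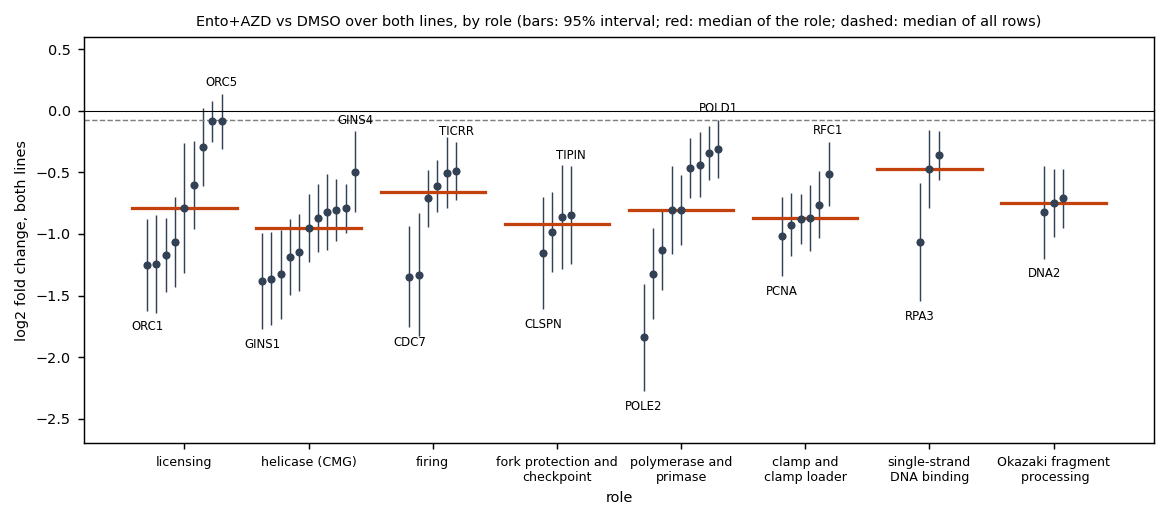
Log2 fold change under Ento+AZD against DMSO over both lines for the 51 genes, ordered within 8 roles, with 95% intervals of the limma fit. Horizontal bars are the median of each role, from -0.95 for the helicase to -0.47 for single-strand DNA binding, and the dashed line is the median of all rows (-0.07); the lowest and highest gene of larger roles are labelled.

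Over both lines the median of each role was below that of all rows. It was -0.95 for the helicase, -0.92 for fork protection and checkpoint, -0.87 for the clamp and its loader, -0.80 for polymerase and primase, -0.79 for licensing, -0.75 for Okazaki fragment processing, -0.66 for firing and -0.47 for single-strand DNA binding. Within licensing the changes ran from -1.25 to -0.08 and within polymerase and primase from -1.84 to -0.31, so that genes of 1 role differed by more than the medians of the roles. The adjusted p was passed by 10 of 11 helicase genes, all 6 firing genes, all 4 fork genes, 8 of 9 polymerase and primase genes, all 6 clamp genes, 2 of 3 RPA genes, all 3 Okazaki genes and 5 of 9 licensing genes. The 7 members that did not pass it were ORC2, ORC4, ORC5, ORC6, GINS4, POLD1 and RPA2.

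Under AZD alone most members also lay below their DMSO level, measured on the same DMSO arrays as for the combination. In SU-DHL-4 limma called none of the 51 (0.18% of all rows were called lower), 29 had an unadjusted p under 0.05 (11.5% of all rows), 50 of 51 were below 0 (63.9% of all rows) and the median was -0.53. The lowest changes were -1.29 for POLE2, -1.04 for CDC7 and -0.93 for CDT1, with adjusted p of 0.103, 0.133 and 0.0992. In DG-75 all 51 were below 0 (60.5% of all rows), the median was -0.68 and 1 gene was called (0.164% of all rows). That gene was ORC1, with 7.20, 7.89 and 7.82 under AZD, all below the DMSO arrays (-1.06 ± 0.16, adjusted p = 0.0471). It was not called in any of the 9 fits with an array or a replicate number omitted. MCM7 and GINS1 also passed the adjusted p, with changes of -0.79 and -0.96 (0.254% of all rows were lower by the adjusted p alone).

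With the lines fitted together, 33 of the 51 passed the adjusted p under AZD (4.29% of all rows) and 1 of them was also more than 2-fold lower (0.25% of all rows). POLE2, the called gene, had a change of -1.32 ± 0.21 (adjusted p = 0.00195). Without the replicate number in the model it was not called. MCM5 and RFC4 had the smallest adjusted p, 0.000762 and 0.000974, at changes of -0.69 in both genes. CLSPN, TIMELESS, TIPIN, POLE, POLD1, POLD2, FEN1 and RPA1 were among the 18 that did not pass.

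Under Ento alone no difference from DMSO passed the test in either line. In DG-75 limma called no member (0% of all rows were called lower), none had an unadjusted p under 0.05, the changes lay between -0.20 and 0.20 and their median was 0.03. In SU-DHL-4 no member was called (0.0117% of all rows), 5 had an unadjusted p under 0.05 (8.59% of all rows, near the members' own share), 42 were below 0 (62.4% of all rows) and the median was -0.20. Subtraction of array medians moved this median to -0.08, that of all rows from -0.06 to 0.05, and 10 of the 51 changes across 0. The lowest changes in SU-DHL-4 were -0.65 for CDC7, -0.63 for RPA3, -0.62 for CDT1 and -0.61 for POLE2. MCM5 had the highest, at 0.28, with 9.28, 9.07 and 9.58 on the Ento arrays, which overlapped the DMSO arrays. Over both lines limma called none, none had an unadjusted p under 0.05, and 39 were below 0 (60.4% of all rows).

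The 3 Ento arrays of SU-DHL-4 did not resemble each other for these genes. Against the mean of the DMSO arrays of the line, the median of the 51 was -0.02 on Ento replicate 1, -0.78 on replicate 2 and 0.27 on replicate 3. On replicate 2, 50 of the 51 genes were lower than on the DMSO array of the same number, compared with 6 on replicate 1 and 30 on replicate 3. Under Ento+AZD the 3 medians were -0.71, -1.43 and -0.49, and replicate 2 was again the lowest. The DMSO arrays themselves had -0.25, -0.05 and 0.32. The median SD of a member between replicates was 0.55 under Ento and 0.51 under Ento+AZD in SU-DHL-4 and 0.30 under DMSO, whereas in DG-75 these values were 0.15, 0.22 and 0.12. Omission of Ento replicate 2, an alternative chosen after the data were seen, left 18 of the 19 genes called for Ento+AZD in SU-DHL-4 and the same count of 17 over both lines. What set these arrays apart was not tested.

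**Figure D4:**
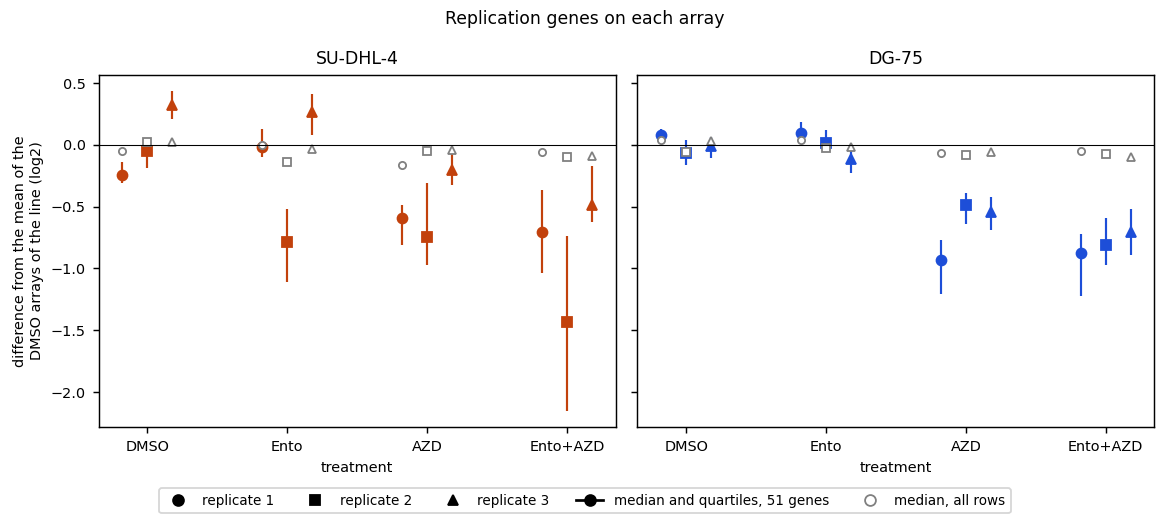
Difference of the 51 replication genes on each array from the mean of the 3 DMSO arrays of the line, on the log2 scale, in SU-DHL-4 (left) and DG-75 (right). Filled symbols are the median and bars the quartiles over the 51 genes, open symbols the median of all rows, and symbol shapes the replicate number. The AZD and Ento+AZD arrays lie below 0 in both lines, and Ento replicate 2 of SU-DHL-4 lies at -0.78.

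Overlap between arrays was counted as well. In SU-DHL-4, 33 of the 51 genes were lower on all 3 Ento+AZD arrays than on all 3 DMSO arrays (16% of all rows), against 20 for AZD (12.9%) and 0 for Ento (9.33%). In DG-75 the combination had 46 such genes (14%), AZD 42 (14.6%) and Ento 0 (3.56%). POLE2, MCM6 and CDC7 were among those apart in both lines under Ento+AZD.

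The combination was also set against each single agent. In DG-75, Ento+AZD was lower than Ento by more than 2-fold at an adjusted p under 0.05 in 10 members (0.598% of all rows), with a median of -0.83. The adjusted p was passed by 25 (1.44%), all 51 lay below 0 (60.1%), and in 48 every combination array was below every Ento array (13.7%). The 10 were ORC1, MCM4, MCM6, GINS1, GINS2, CDC45, MCM10, WDHD1, POLE2 and RFC3. That count was 0 without Ento replicate 1 or 2 or without Ento+AZD replicate 1 or 2, and 22 without Ento replicate 3. In SU-DHL-4 the same comparison called MCM5 alone (0.0704% of all rows), just over 2-fold lower (SE 0.15 on the log2 scale, adjusted p = 0.0451). Its 3 Ento+AZD arrays, at 8.34, 8.05 and 8.53, were below the 3 Ento arrays. A further 13 members had a change above 2-fold without passing the adjusted p (112 of all 25575 rows). MCM5 was not called when any Ento or Ento+AZD array was left out. The count rose to 7 without dim rows, 10 in a fit of all 24 arrays and 12 with a trended robust prior. MCM5 was also the only member to pass the adjusted p (0.0821% of all rows), 4 members did not overlap (7.15%), 49 were below 0 (53.9%) and the median change was -0.79.

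Against AZD, limma called no member for the combination in either line (0.00391% of all rows in SU-DHL-4 were called lower, 0.00782% by the adjusted p alone, with 0% for DG-75). For SU-DHL-4, 44 of the 51 were below 0 (51.6% of all rows), 21 had an unadjusted p under 0.05 (7.03%) and the median was -0.39, with GINS2 at -1.02 (95% interval -1.52 to -0.53, adjusted p = 0.316). In DG-75, 43 were below 0 (50% of all rows), 1 had an unadjusted p under 0.05 (4.03%), none was lower on all arrays (3.74%) and the median was -0.12. Additivity was tested as the combination's change minus the Ento and AZD changes added together. By limma no member was called in either line (0% of all rows lower), and 1 in each had an unadjusted p under 0.05 (4.99% and 2.63% of all rows). In DG-75, 46 members were below 0 (48.6% of all rows) and in SU-DHL-4 34 were (41.7%). The median was -0.19 (SU-DHL-4) and -0.13 (DG-75). Subtraction of array medians moved the SU-DHL-4 median to -0.29 and that of all rows from 0.06 to -0.05. For POLE2 it was -0.14 with a 95% interval of -1.01 to 0.73 in SU-DHL-4, and for ORC1 -0.75 with an interval of -1.54 to 0.04.

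**Figure D5:**
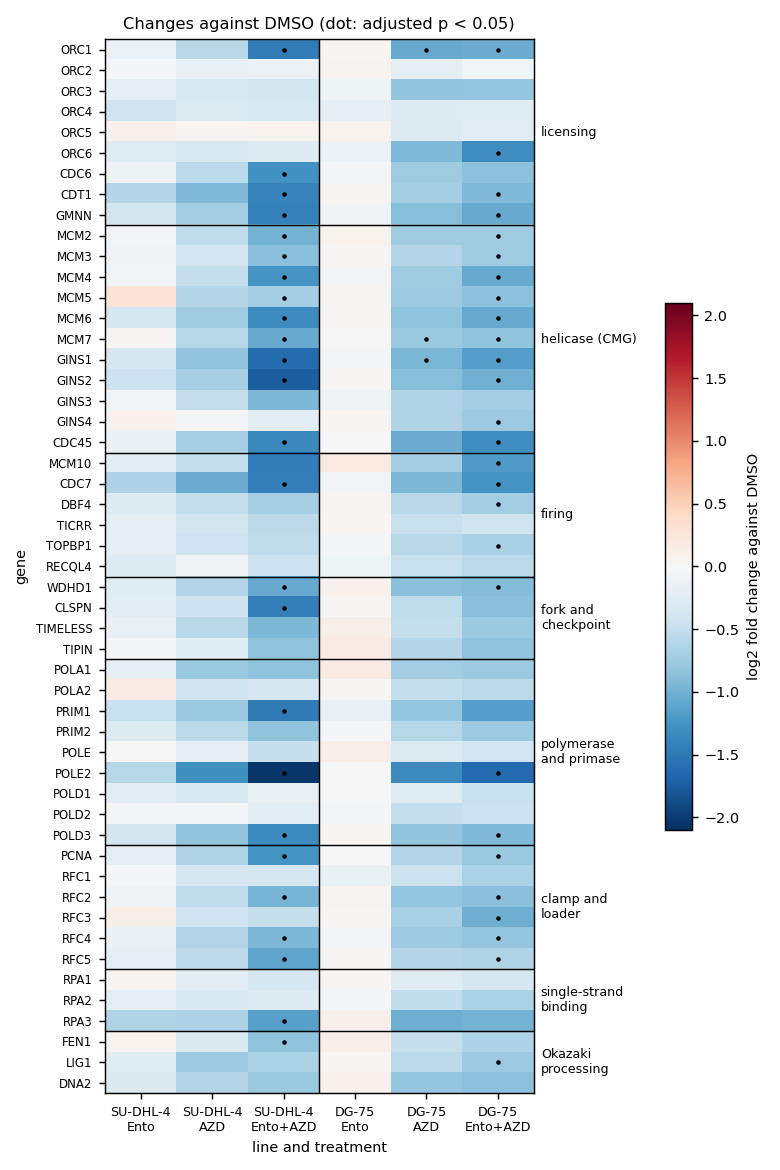
Log2 fold change against DMSO of the 51 replication genes (rows, by role) under Ento, AZD and Ento+AZD in SU-DHL-4 and DG-75 (columns), blue for lower and red for higher. Dots mark an adjusted p under 0.05 in limma. The Ento columns are pale, the AZD columns carry 0 dots (SU-DHL-4) and 3 dots (DG-75), and the Ento+AZD columns carry 25 and 27.

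The lines were compared directly. The response to Ento+AZD was not called as different between the lines for any member by limma (0.0235% of all rows were called lower), and 2 of the 51, GINS2 and ORC6, had an unadjusted p under 0.05 (6.51% of all rows). The GINS2 change in SU-DHL-4 minus that in DG-75 was -0.72 (95% interval -1.37 to -0.07, adjusted p = 0.704). For POLE2 the difference was -0.41 with an interval of -1.28 to 0.47, wide enough to hold a difference of 2-fold. For AZD no member was called by limma and 2 had an unadjusted p under 0.05 (6.16%), and for Ento none was called and 1 had (4.43%), with 0% of all rows called lower for each. Of the genes called for Ento+AZD in each line, 9 were shared, 47.4% of the 19 of SU-DHL-4 and 75% of the 12 of DG-75 (0.313% of all rows were called lower in both). By the adjusted p alone 20 were shared, 80% of 25 and 74.1% of 27 (0.794% of all rows). The 9 shared calls were ORC1, GMNN, MCM4, MCM6, GINS1, GINS2, CDC45, CDC7 and POLE2.

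In the absence of inhibitors, the SU-DHL-4 mean was below the DG-75 mean for 42 of the 51 (48.3% of all rows), with a median difference of -0.36. Of these, 3 were called lower (4.11% of all rows), GINS2 (-1.24, adjusted p = 0.0269), MCM10 (-1.26, adjusted p = 0.0312) and DNA2 (-1.01, adjusted p = 0.0252). By the adjusted p alone 4 members were lower (9.84% of all rows), and 14 had an unadjusted p under 0.05 in limma (27.6%). These counts were near the shares over all rows. RPA3 had the highest difference, 0.90 (adjusted p = 0.0997). With 1 DMSO array omitted the count of calls ranged from 0 to 4. It was 0 without SU-DHL-4 replicate 1, 1 without SU-DHL-4 replicate 2 or without DG-75 replicate 1 or 3, 2 without DG-75 replicate 2 and 4 without SU-DHL-4 replicate 3.

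Genes that work beside these factors were read from a list of 28. Under Ento+AZD 3 were called lower in SU-DHL-4 (1.09% of all rows), namely CHEK1, the kinase activated through CLSPN (-1.72, adjusted p = 0.00982), TOP2A, a DNA topoisomerase (-1.38, adjusted p = 0.0180), and ATAD5, which unloads PCNA (-1.02, adjusted p = 0.0149). In DG-75 4 were called (0.708% of all rows), DSCC1, a subunit of an alternative clamp loader (-1.14), CHEK1 (-1.11), MTBP, a partner of TICRR (-1.08), and ATAD5 (-1.06). CHEK1 had 8.45, 8.61 and 8.96 under DMSO and 7.37, 5.81 and 7.69 under Ento+AZD in SU-DHL-4, with no overlap. POLD4, the smallest subunit of polymerase delta, went the other way and rose, by 0.63 in the first line (adjusted p = 0.0385) and 0.60 in the second (adjusted p = 0.0454), below 2-fold in both. By the adjusted p 0.301% and 0.516% of all rows were higher in these comparisons. The median change of the 28 was -0.36 (SU-DHL-4) and -0.27 (DG-75).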

How the data were processed

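Clariom D arrays of the lymphoma cell lines SU-DHL-4 and DG-75 were analysed. The deposited values are log2 intensities made by the authors with the robust multi-array average (RMA) and limma, and annotated with affycoretools and clariomhumantranscriptcluster.db. RMA gives every array the same distribution of probe intensity and then combines a gene's probes into 1 value, so that a shift shared by all genes is removed. The genome build of the array annotation was not given in the sources used here.

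Sample titles gave group and replicate number, and 0 columns of per-sample values were left unused. All 25575 rows entered limma 3.58.1 in R 4.3.3 (lmFit, contrasts.fit, eBayes). Each line was fitted separately with terms for treatment and replicate number, the latter standing in for the batch term of the study's methods, which is not defined there. Benjamini-Hochberg adjustment covered all rows, and calls needed an adjusted p under 0.05 plus a change above 2-fold, as in the study. Fits over both lines used all 24 arrays with a replicate term within each line, and the lines were compared in 1 fit of 8 groups.

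Values on every array are given for the 2 members of each role with the smallest p for Ento+AZD against DMSO over both lines, and for members called in a comparison of treatments within 1 line that called at most 5. The array values of GINS2, ORC2, ORC6 and, outside the members, CHEK1 were added after they were seen, as was the result for POLD4. The 51 members, the roles and the other lists were chosen with earlier results of these data known. In the B-cell marker list, 1 gene is not reported here. The calculations were tested on simulated data. Alternatives were no replicate term, 1 fit of all arrays, only the groups compared, subtraction of array medians, quantile normalization, omission of dim rows, a trended robust prior, no fold minimum, and omission of each array. Promoter windows came from RefSeq (GRCh38.p14). The number of arrays, 3 per group, limits the precision.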

Additional observations from a re-analysis of the deposited data

How the results depend on the processing

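No called gene changed direction under any alternative. Signs near 0 did turn with scaling: under Ento+AZD against DMSO, ORC2 went to 0.01 and 0.04 in SU-DHL-4 and DG-75 after subtraction of array medians and to 0.02 and 0.08 after quantile normalization. For each comparison with 0 members called, fits with an array or a replicate number omitted also called 0. The counts otherwise ranged over such fits from 0 to 23 for Ento+AZD against DMSO in SU-DHL-4, 0 to 12 in DG-75 and 12 to 19 over both lines. They ranged from 0 to 22 for DG-75 Ento+AZD against Ento, from 0 to 4 for AZD against DMSO over both lines and from 0 to 4 for the lines under DMSO, and were 0 in every such fit for Ento+AZD against Ento in SU-DHL-4 and for AZD in DG-75. Without the replicate block, Ento+AZD in SU-DHL-4 called 1 member in place of 19, Ento+AZD against Ento in that line 0 and AZD over both lines 0, and a replicate block across the lines gave 5 for the lines under DMSO, as did a fit of only those groups. Residuals of same-numbered arrays correlated above 0.1 in 12 of 18 pairs in SU-DHL-4 (mean 0.138, arrays of other numbers -0.0683). In DG-75 they did in 7 of 18 (mean 0.0225, arrays of other numbers -0.0105). The difference was not tested, so the numbers were not shown to pair the arrays. A trended robust prior gave 2 for AZD in SU-DHL-4, 12 for Ento+AZD against Ento in SU-DHL-4 and 3 for AZD in DG-75. One fit of all 24 arrays gave 10 and 3 for the latter pair, and omission of dim rows, which kept all 51 members, 7 and 3. A fit of only the groups compared gave 0 for both and 0 for DG-75 Ento+AZD against Ento. Subtraction of array medians gave 0 for Ento+AZD against Ento in SU-DHL-4, 0 for AZD in DG-75, 4 for Ento+AZD in DG-75 and 6 for DG-75 Ento+AZD against Ento, and quantile normalization gave 0, 0, 7 and 4. Without the fold minimum the counts were 3, 27 and 25 for AZD, Ento+AZD and, against Ento, Ento+AZD in DG-75, and 33 and 44 for AZD and Ento+AZD over both lines. Subtraction of array medians moved the median of all rows by 0.13, from -0.08 to 0.05, for Ento+AZD in SU-DHL-4 and left the median of the 51 genes at -0.74. The cause of these changes was not tested. Every member had 1 row, so the choice among rows changed nothing. No background value per gene was used, so that low log2 values cannot be divided into expressed and not expressed.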
